A study of Mus musculus with 6 samples.

Results

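The core circadian clock genes described here are Arntl, Clock, Per1, Per2, Per3, Cry1, Cry2, Nr1d1, Nr1d2 and Dbp, 10 of the 46078 genes in the count table. They were taken by symbol from the authors' deposited comparison table and by the same Ensembl identifier from the count table, and all 10 were found in both and were tested. RNA came from the epithelial fraction of the colon, freed by a chelating wash, of mice aged 2 months and kept without any experimental treatment. The groups were wild type mice and mice homozygous for a Lingo3 knockout (Lingo3-/-), with 3 libraries each. The labels give neither strain, sex nor time of day at harvest, nor is it stated that each library is a separate animal, so the p-values below reflect the spread among these samples, possibly only technical spread.

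In mammals the clock is a feedback loop of transcription. ARNTL (also called BMAL1) pairs with CLOCK and binds E-box sequences, which switches on the Per and Cry genes; their proteins return to the nucleus and repress the same pair. A second loop runs through Nr1d1 and Nr1d2, whose proteins REV-ERB alpha and REV-ERB beta repress Arntl, against the activating ROR receptors. Dbp is an output of the loop, a transcription factor that binds D-box sequences. In mouse peripheral tissues, the colon included, these transcripts swing over the day, with Nr1d1 and Dbp among the widest swings and Arntl roughly opposite to Nr1d1.

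Among the 10 genes, 3 fell in the knockout libraries and 0 rose; scaling by library totals only, which moved the median of all genes by 0.28 on the log2 scale, left Nr1d1 and Cry2 lower and called 3 genes higher (Per2, Cry1 and Clock). Nr1d1 fell most, to 43.6% of its wild type level, Cry2 fell to 63.6% and Nr1d2 to 78.5%. Dbp had 48.3% of its wild type level but missed the threshold, and Arntl, Clock, Per1, Per2, Per3 and Cry1 did not pass it. The calls come from the quasi-likelihood test of edgeR, with Benjamini-Hochberg adjustment over 16856 genes at a threshold of 0.05, by which 15.4% of all tested genes changed, 5.97% in the lower and 9.43% in the higher direction. The median log2 fold change was -0.12 over the 10 genes and -0.03 over all genes tested. In the authors' deposited table, where 16.7% of 15138 genes have an adjusted p under 0.05, Nr1d1 and Cry2 do and the other 8 do not.

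Promoter stretches of these genes are shown because the loop acts through short sequences in them. The stretches are the 170 bases before the RefSeq transcription start in GRCm38.p6, written 5′ to 3′ on the gene's own strand, for the genes that fell and for Cry1, which was not called. Capitals mark matches to the E-box CACGTG or to its variant CACGTT, which reads AACGTG on the other strand.
Nr1d1, chr11:98775378-98775547, minus strand: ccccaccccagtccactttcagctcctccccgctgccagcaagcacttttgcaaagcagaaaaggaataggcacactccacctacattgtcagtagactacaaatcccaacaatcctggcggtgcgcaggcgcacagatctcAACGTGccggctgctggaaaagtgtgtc
Cry2, chr2:92434070-92434239, minus strand: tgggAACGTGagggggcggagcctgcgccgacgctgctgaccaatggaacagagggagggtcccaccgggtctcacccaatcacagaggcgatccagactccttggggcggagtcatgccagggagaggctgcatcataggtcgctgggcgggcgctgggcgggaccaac
Nr1d2, chr14:18239107-18239276, minus strand: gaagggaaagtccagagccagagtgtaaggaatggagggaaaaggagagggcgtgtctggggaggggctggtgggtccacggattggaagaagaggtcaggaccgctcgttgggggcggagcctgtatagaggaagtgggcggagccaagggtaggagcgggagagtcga
Cry1, chr10:85185055-85185224, minus strand: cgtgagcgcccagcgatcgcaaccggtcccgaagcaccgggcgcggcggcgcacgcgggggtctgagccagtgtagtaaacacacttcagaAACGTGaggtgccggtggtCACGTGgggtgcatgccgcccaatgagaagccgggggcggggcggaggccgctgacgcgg

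Windows from 250 bases before to 50 bases after the start were searched on both strands. The set of RefSeq windows used held 9 of the 10 genes. It held none for Per2, so Per2 was not searched. A gene was counted if any of its windows matched, and Per1, Arntl and Clock had more than 1, whereas the shares are of single windows. The E-box CACGTG was found in 2 of the 9 (Per1 and Cry1) and in 7.15% of all 32851 windows. The variant CACGTT, which shares no match with CACGTG, was found in 3 (Nr1d1, Cry1 and Cry2) and in 4.68% of all windows. A D-box, TTATGNAA, was found in 2 (Per1 and Per3; 3.38% of all windows), the ROR element TAGGTCA in 1 (Arntl; 2.61%) and the cyclic AMP response element TGACGTCA in 0 (1.79%). In the Nr1d1 stretch the variant began 28 bases before the start, in Cry2 166 bases before it, and Cry1 held both forms, at 60 and 79 bases. Cry1, which was not called, thus matched both forms, whereas the window of Nr1d2, which fell, matched none of the 5 motifs. These matches describe letters and show no binding.

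The 6 libraries held 11868000 to 28029583 counts over genes, with the wild type libraries deeper, and the mitochondrial genome took 45.3 to 48.4% of counts in wild type and 34.7 to 36.3% in knockout. Lingo3 itself had 1 to 3 counts per wild type library and 0 to 2 per knockout library, so it does not check the genotype labels. Markers of the colon epithelium came to 4115 to 5001 CPM (a gene's counts relative to the total of its library, scaled with TMM factors) in wild type and 4843 to 5886 CPM in knockout over 10 genes, of which 2 rose (Krt18 and Cdx1). The T cell markers came to 156 to 172 CPM in wild type and 52.6 to 94.0 CPM in knockout, and 10 of 12 fell. The B cell markers came to 20.1 to 56.9 and 7.76 to 14.1 CPM, with 3 of 7 lower, and the 6 fibroblast markers to 335 to 987 and 225 to 463 CPM, with none called and a median log2 fold change of -1.27. Of 7 markers listed as myeloid, which came to 223 to 247 and 123 to 301 CPM, 2 fell (Itgax and Ptprc) and 1 rose (Cd14). Ptprc, which T and B cells express too, held 145 ± 16.6 and 80.1 ± 15.2 CPM (SD, n = 3) of these sums. Of 5 smooth muscle markers, at 2.47 to 4.91 and 2.60 to 4.16 CPM, 4 were tested and 1 fell (Des), and no marker of these lists was at 0 in all libraries. Of all genes tested, 5.97% fell and 9.43% rose. Whether the cells of these marker lists take part in the clock gene values was not tested. In bulk RNA, fewer cells of a type and less RNA per cell cannot be told apart. Only wild type replicate 1 is labelled with a wash of 5 mM EDTA plus 2.5 mM DTT; EDTA alone is named in the labels of the other 5, while the protocol text common to all 6 names both agents, so it is not settled whether the wash differed.

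Nr1d1 occupies chromosome 11, minus strand, positions 98767932 to 98775333 of GRCm38. It had 18.0, 15.6 and 25.4 CPM in wild type replicates 1, 2 and 3 and 6.90, 8.96 and 9.92 CPM in knockout replicates 1, 2 and 3. Every knockout library lay below every wild type library, and wild type replicate 3 was the highest. The mean was 19.7 ± 5.07 CPM in wild type and 8.59 ± 1.54 CPM in knockout (SD, n = 3), 2.29-fold lower, and the fitted log2 fold change was -1.20 with SE 0.20 (adjusted p = 0.00510 by edgeR). It rested on 386, 415 and 585 counts in wild type and 134, 169 and 124 in knockout. Wild type replicate 3 was also the highest in the summed immediate early genes described further on. The same library was the highest in the summed glucocorticoid target genes (818 CPM), in Per1 (27.8 CPM) and in Per3 (20.5 CPM). The other libraries did not keep a common order. Knockout replicate 1 had the lowest Nr1d1 but an immediate early gene sum of 900 CPM, beside 682 and 898 CPM in knockout replicates 2 and 3. The call was kept without any 1 of the 6 libraries, with log2 fold changes of -1.32 to -0.96 and adjusted p of 0.00364 to 0.0262 by edgeR.

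The 3′ end of Nr1d1 overlaps the thyroid hormone receptor gene Thra on the opposite strand over 263 exonic bases, 8.55% of the exon length of Nr1d1. Thra had 27.2 ± 1.47 CPM in wild type and 21.7 ± 0.971 CPM in knockout (SD, n = 3) and fell by 0.33 on the log2 scale (edgeR adjusted p = 0.0366), a call lost in 10 of 16 alternative settings. The library kit kept strand, but the strand setting of the counting is not given in the sources used here. If strand was ignored, reads of the overlap could not be assigned to either gene.

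Cry2 encodes a cryptochrome that, with the PER proteins, represses the ARNTL and CLOCK pair. It occupies chromosome 2, minus strand, positions 92403646 to 92434043. Its level was 25.1, 26.1 and 26.8 CPM in wild type replicates 1, 2 and 3 and 16.3, 14.2 and 19.2 CPM in knockout replicates 1, 2 and 3. The wild type libraries lay close together, and all 3 knockout libraries were below them. The means were 26.0 ± 0.850 and 16.5 ± 2.53 CPM (SD, n = 3), and the fitted log2 fold change was -0.66 with SE 0.12 (adjusted p = 0.00461 by edgeR). Without single libraries the log2 fold change stayed between -0.77 and -0.55, and the highest edgeR adjusted p was 0.0194. An antisense transcript, D930015M05Rik, overlaps 4.67% of the Cry2 exon length. Its level was 1.67 ± 0.141 and 0.834 ± 0.197 CPM (SD, n = 3), small beside that of Cry2. It fell by 0.98 on the log2 scale (edgeR adjusted p = 0.0414), a call lost in 10 of 15 alternative settings. If the counting ignored strand, reads of this overlap could not be assigned to either gene.

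Cry1 encodes the other cryptochrome. It had 34.0, 24.1 and 31.7 CPM in wild type replicates 1, 2 and 3 and 40.6, 27.3 and 32.8 CPM in knockout replicates 1, 2 and 3, and the groups overlapped. The log2 fold change was 0.17 with a 95% interval of -0.21 to 0.54 (edgeR adjusted p = 0.533), while that of Cry2 was -0.91 to -0.40; the intervals do not overlap, and the difference itself was not tested. Within a library, Cry1 stood at 2.57, 1.75 and 2.24 times Cry2 per kilobase of exon in wild type and at 4.72, 3.65 and 3.23 times in knockout. This ratio does not depend on how libraries are scaled, and its groups did not overlap.

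Nr1d2, the close relative of Nr1d1, occupies chromosome 14, minus strand, positions 18204054 to 18239127. It had 28.6, 31.1 and 29.5 CPM in wild type replicates 1, 2 and 3 and 21.4, 24.3 and 24.3 CPM in knockout replicates 1, 2 and 3. The groups did not overlap, but the fall was small. The fitted log2 fold change was -0.35 with SE 0.10 (adjusted p = 0.0303 by edgeR), and the call was kept only without wild type replicate 1 among the 6 fits that leave out a library (adjusted p up to 0.132). The authors' deposited table gives Nr1d2 a log2 fold change of -0.33 with an adjusted p of 0.0792. Per kilobase, the ratio of Nr1d2 to Nr1d1 within a library went from 0.898 ± 0.235 to 1.57 ± 0.187 (SD, n = 3), with no overlap.

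**Figure D1:**
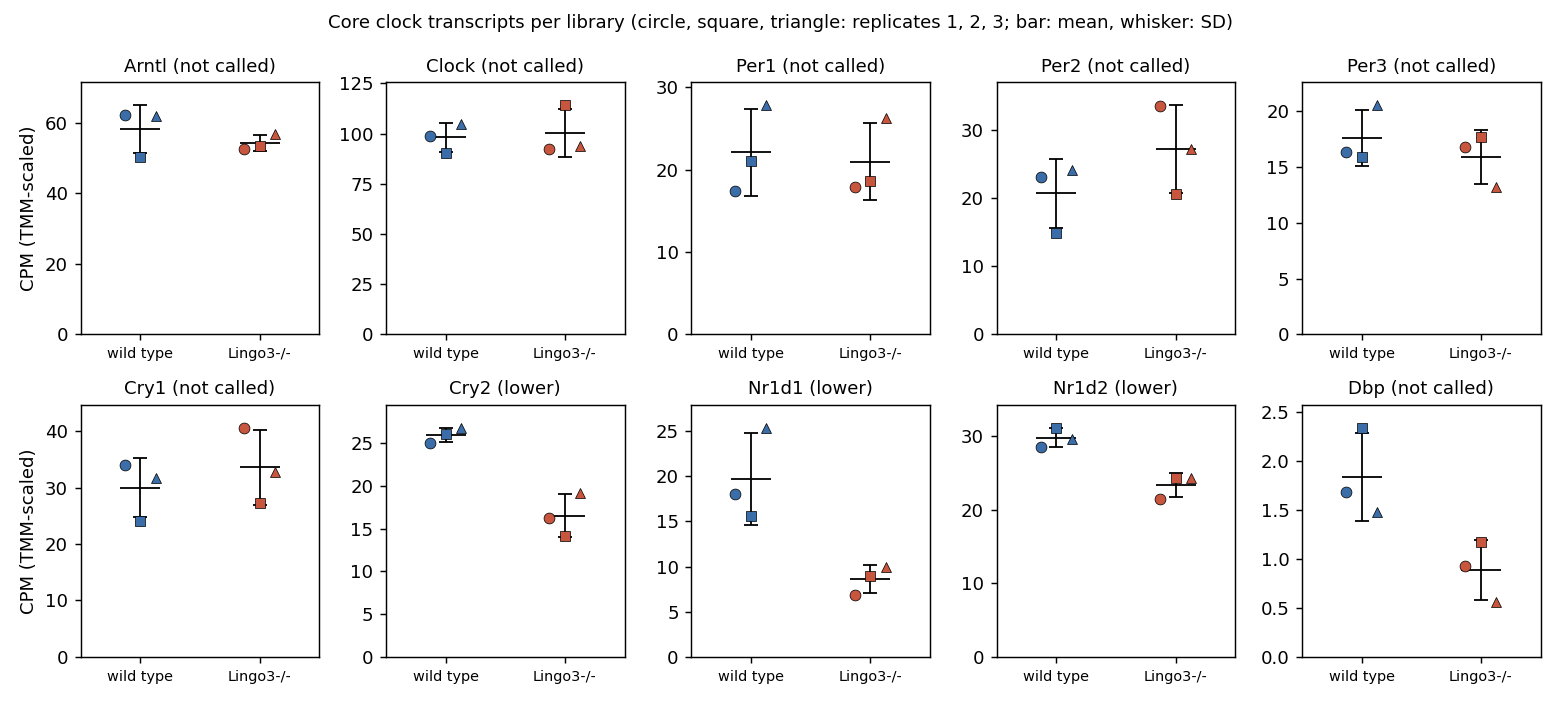
Levels of the 10 clock genes in each library, in CPM scaled with TMM factors on axes that start at 0, for wild type (blue) and Lingo3-/- (red); bars are means and whiskers SD over 3 libraries. The knockout libraries lie below all wild type libraries for Nr1d1, Cry2, Nr1d2 and Dbp, and the groups overlap for the other 6 genes.

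Dbp was the scarcest of the genes and its precision was limited by depth. Wild type replicates 1, 2 and 3 held 36, 62 and 34 of its counts, and knockout replicates 1, 2 and 3 held 18, 22 and 7. That gave 1.68, 2.34 and 1.47 CPM against 0.927, 1.17 and 0.560 CPM, groups that did not overlap. The log2 fold change was -1.01 with a 95% interval of -1.72 to -0.30, and the edgeR adjusted p of 0.0551 missed the threshold. With all libraries thinned to 11868000 counts the log2 fold change was -0.62 (edgeR adjusted p = 0.353), and with no filter on low counts the gene passed (0.0270). Dbp shares 539 exonic bases, 18.0% of its exon length, with the sphingosine kinase gene Sphk2 on the opposite strand. Sphk2 had 37.1 ± 1.24 and 33.6 ± 6.42 CPM (SD, n = 3), far above Dbp, and did not pass (edgeR adjusted p = 0.435). Reads of the shared bases could not be assigned to either gene if the counting ignored strand.

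Among all 10 genes, 4 had groups that did not overlap with knockout lower and 0 with knockout higher, against 16.0% and 19.7% of all genes tested. These 4 were Nr1d1, Nr1d2, Cry2 and Dbp.

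The activators Arntl and Clock had overlapping groups and changes near 0. Arntl, on chromosome 7, plus strand, positions 113207465 to 113314126, had 62.2, 50.4 and 62.1 CPM in wild type replicates 1, 2 and 3 and 52.6, 53.4 and 56.8 CPM in knockout replicates 1, 2 and 3. The knockout libraries lay inside the wild type range. The log2 fold change was -0.10 (0.18 with library totals only) with a 95% interval of -0.33 to 0.12 (edgeR adjusted p = 0.533). Clock had 99.0, 90.3 and 105 CPM against 92.6, 114 and 94.1 CPM, again overlapping, with a log2 fold change of 0.03 and an interval of -0.21 to 0.27 (edgeR adjusted p = 0.867). Within a library, Arntl stood at 1.41, 1.32 and 1.00 times Nr1d1 per kilobase in wild type replicates 1, 2 and 3. The corresponding ratios in knockout replicates 1, 2 and 3 were 3.12, 2.44 and 2.34, with a mean 2.12 times that of wild type and no overlap between groups. The ratio of Arntl to Dbp was 14.7, 8.59 and 16.7 in wild type and 22.6, 18.2 and 40.4 in knockout, again without overlap, and it carries the counting error of Dbp.

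**Figure D2:**
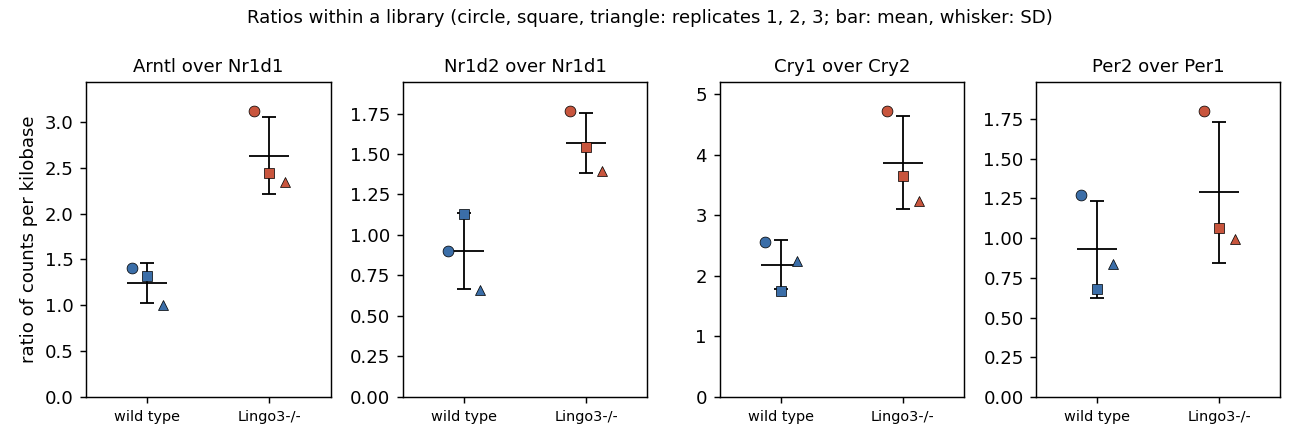
Ratios of counts per kilobase of exon between pairs of clock genes within each library, wild type (blue) and Lingo3-/- (red), with means and SD. Arntl over Nr1d1, Nr1d2 over Nr1d1 and Cry1 over Cry2 are higher in every knockout library than in any wild type library, and Per2 over Per1 overlaps.

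The Period genes encode the other arm of the repressor complex, and 0 of 3 passed, where 15.4% of all genes tested did. Per1 had 17.4, 21.0 and 27.8 CPM in wild type replicates 1, 2 and 3 and 17.9, 18.6 and 26.3 CPM in knockout replicates 1, 2 and 3. The groups covered nearly the same range (log2 fold change -0.09 with TMM factors, 0.19 with library totals only; 95% interval -0.55 to 0.38; edgeR adjusted p = 0.805). Per2 had 23.1, 14.8 and 24.2 CPM against 33.6, 20.6 and 27.3 CPM. Its groups overlapped and its spread was wide, with a log2 fold change of 0.40 and an interval of -0.17 to 0.96 (edgeR adjusted p = 0.303). It passed in the higher direction with library totals only (edgeR adjusted p = 0.0367) and with no filter on low counts (0.0109). Per3 had 16.4, 15.9 and 20.5 CPM against 16.7, 17.7 and 13.2 CPM, with a log2 fold change of -0.14 (0.15 with library totals only; edgeR adjusted p = 0.522). In both Per2 and Cry1, replicate 2 had the lowest level in each genotype.

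**Figure D3:**
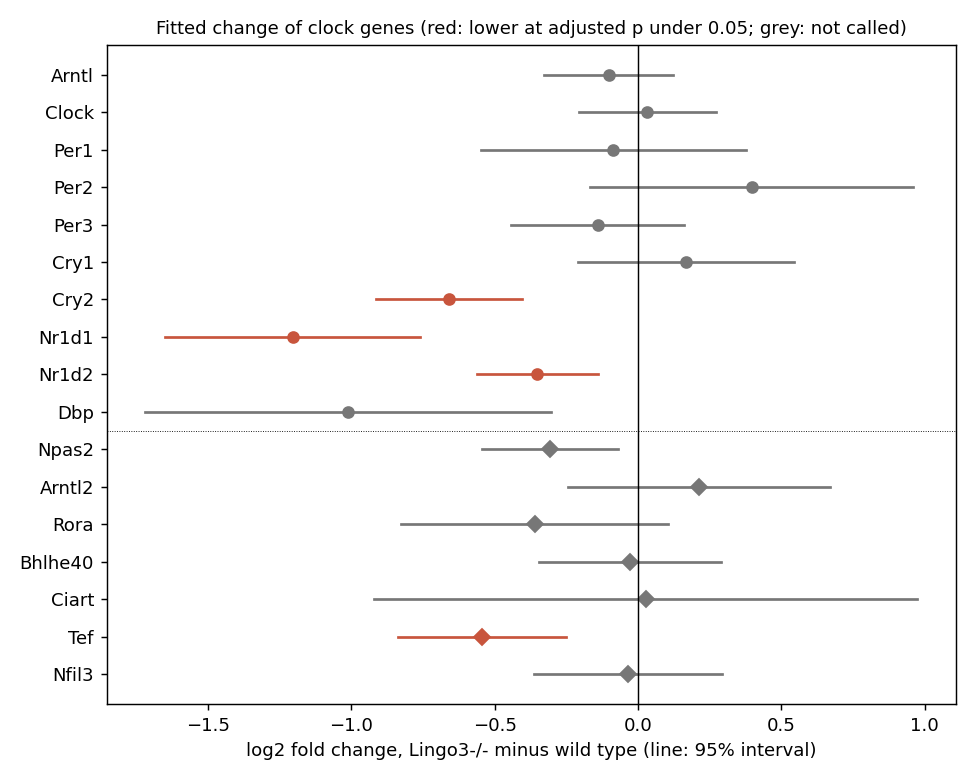
Log2 fold change (x axis, Lingo3-/- minus wild type) of the 10 clock genes (circles, above the dotted line) and 7 further clock transcription factors (diamonds), with 95% intervals from the edgeR fit. Nr1d1, Cry2, Nr1d2 and Tef are called lower and 0 genes are called higher; with library totals only, Per2, Cry1 and Clock are called higher.

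Scaled by exon length, the wild type order of mean level was Cry1, Arntl, Clock, Nr1d1, Nr1d2, Cry2, Per1, Per2, Per3 and Dbp. Cry1 stood at 8.97 ± 1.55 and Dbp at 0.612 ± 0.150 CPM per kilobase (SD, n = 3). The ranges of Cry1 (7.22 to 10.2), Arntl (6.71 to 8.27), Clock (6.58 to 7.64) and Nr1d1 (5.09 to 8.25) overlapped, so their order is not resolved by these libraries. Nr1d2 (5.28 to 5.76) was above Cry2 (3.97 to 4.24) in every wild type library. Per1 and Per2 overlapped with Cry2, whereas Per3 (1.66 to 2.14) and Dbp (0.493 to 0.781) stood apart below. In knockout Nr1d1 went from position 4 to position 7 (2.24 to 3.22 CPM per kilobase), below the range of Per2 there (3.52 to 5.73). Its range touched that of Per1 (3.18 to 4.67) and overlapped that of Cry2 (2.24 to 3.04), so its order against them is not resolved. Per2 went from position 8 to position 4, within overlapping ranges.

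**Figure D4:**
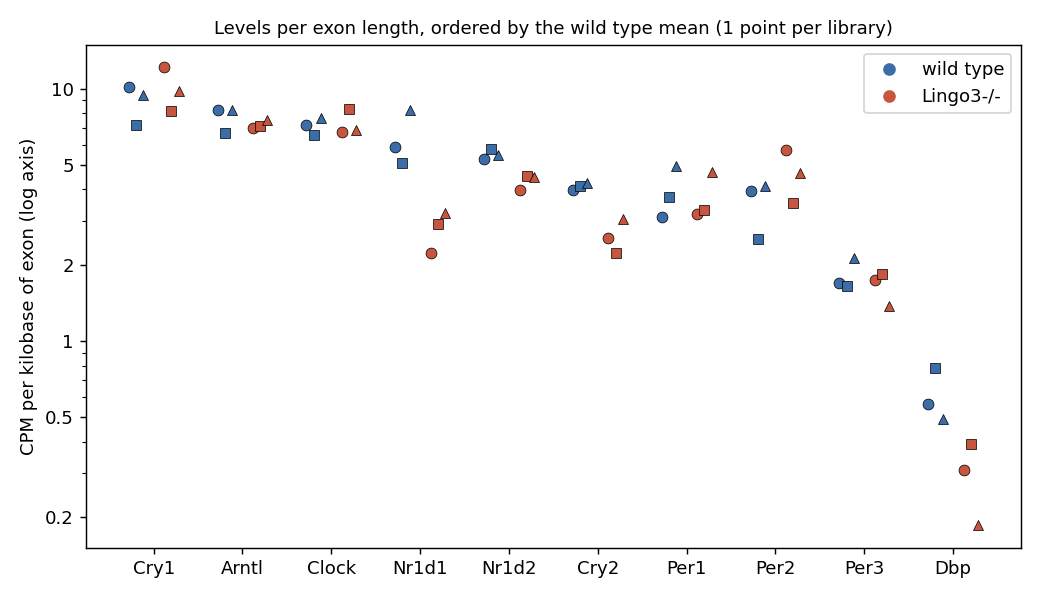
CPM per kilobase of exon on a log axis for the 10 genes, ordered by the wild type mean, with 1 point per library (blue wild type, red Lingo3-/-; circle, square and triangle for replicates 1, 2 and 3). Nr1d1 leaves the upper group of genes in knockout, and Dbp is the lowest in both genotypes.

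Of 7 further transcription factors of the loop, 5 had enough counts to be tested. Of these 5, 0 rose and 0 fell, where 9.43% of all genes tested rose and 5.97% fell. Npas2, which can take the place of CLOCK beside ARNTL, had 48.6, 40.0 and 49.5 CPM in wild type replicates 1, 2 and 3 and 38.2, 33.9 and 39.5 CPM in knockout replicates 1, 2 and 3. Its groups did not overlap, with knockout lower, but its log2 fold change of -0.31 missed the threshold (edgeR adjusted p = 0.0757). Rora, a receptor that activates the element that the REV-ERB proteins repress, had 5.14 ± 0.995 and 4.03 ± 0.779 CPM (SD, n = 3), with overlapping groups. Bhlhe40, an E-box repressor, had 55.3 ± 11.3 and 54.2 ± 4.57 CPM (SD, n = 3). Arntl2, a paralog of Arntl, had 2.78 ± 0.268 and 3.23 ± 0.432 CPM (SD, n = 3), and Ciart, a repressor of the ARNTL and CLOCK pair, 0.966 ± 0.135 and 0.932 ± 0.610 CPM (SD, n = 3). Rorb and Bhlhe41 had at most 15 counts in any library and were not tested.

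Tef belongs with Dbp to the PAR bZIP family that binds D-boxes, and it fell. It had 16.3, 15.3 and 13.1 CPM in wild type replicates 1, 2 and 3 and 11.0, 8.86 and 10.8 CPM in knockout replicates 1, 2 and 3, with no overlap. The fitted log2 fold change was -0.54 with SE 0.13 (adjusted p = 0.0195 by edgeR), and the call was lost in 5 of 16 alternative settings: scaling by library totals only and leaving out wild type replicate 1, wild type replicate 2, knockout replicate 2 or knockout replicate 3 (edgeR adjusted p up to 0.176). Nfil3, which represses the same D-box element, had 9.98 ± 1.41 and 9.79 ± 1.23 CPM (SD, n = 3; edgeR adjusted p = 0.901). Hlf, the other member of the family, had at most 9 counts in any library and was not tested.

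Because the genes peak at different hours in mouse tissues, their values are set side by side by known order of peak, a grouping made after the values were seen and given without a test. The tested loop factors Arntl2, Rora, Bhlhe40 and Ciart were left out of this grouping. Their log2 fold changes with TMM were 0.21, -0.36, -0.03 and 0.03, and none was called. Over all genes tested, 5.97% fell and 9.43% rose. Nr1d1, Dbp, Nr1d2, Per3 and Tef, which peak earlier in the day, had log2 fold changes of -1.20 to -0.14 with the TMM scaling. Of these 5, 3 fell, and with library totals only Per3 was at 0.15. Per1, Per2 and Cry2, which peak around dusk, ran from -0.66 to 0.40, with 1 lower. Arntl, Clock, Npas2, Cry1 and Nfil3, which peak roughly opposite to Nr1d1, ran from -0.31 to 0.17 with TMM, 0 lower and 0 higher. The highest upper bound of their 95% intervals was 0.54, that of Cry1. With library totals only, Cry1 (0.46, edgeR adjusted p = 0.0398) and Clock were called higher. In that setting Arntl was at 0.18 and Nfil3 at 0.25, and Npas2 stayed negative. The hour of harvest is not given in the labels, and its part in these values was not tested.

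Among 17 kinases, ubiquitin ligases and protein partners that set the stability or activity of clock proteins, 3 rose and 0 fell, beside 9.43% and 5.97% of all genes tested; the median log2 fold change of the list was 0.02. Csnk2b, a subunit of casein kinase 2, rose by 0.38 on the log2 scale (25.5 ± 0.577 and 33.2 ± 2.65 CPM, SD, n = 3; edgeR adjusted p = 0.0208). Nono, a partner of the PER proteins, rose by 0.41 (67.8 ± 1.11 and 89.8 ± 7.54 CPM, SD, n = 3; edgeR adjusted p = 0.0154). Tipin, the partner of TIMELESS, rose by 0.58 (5.55 ± 0.586 and 8.33 ± 1.02 CPM, SD, n = 3; edgeR adjusted p = 0.0309). Csnk1d, a kinase of the PER proteins, was at 74.0 ± 3.14 and 74.8 ± 3.38 CPM (SD, n = 3). The count of 3 became 7 with library totals only, 1 without wild type replicate 3 and 0 without knockout replicate 2 or knockout replicate 3.

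Among 20 genes listed as clock outputs, 4 rose and 0 fell, where 9.43% of all tested genes rose and 5.97% fell. They were Tfrc, the transferrin receptor (0.83; edgeR adjusted p = 0.0248), Slc5a1, a sodium and glucose transporter (0.49; 0.0329), Klf9 (0.35; 0.0337) and Nampt, an enzyme of NAD synthesis (0.31; 0.0323), with log2 fold changes and adjusted p in that order. The median over the list was -0.08. Wee1, Por and Usp2, further listed outputs, had log2 fold changes of 0.30, -0.32 and -0.21 and did not pass. With upper-quartile scaling 1 of the 20 rose in place of 4, and the count was 0 without wild type replicate 2, wild type replicate 3, knockout replicate 2 or knockout replicate 3.

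Some clock genes, Per1 and Per2 among them, also respond to cyclic AMP and to glucocorticoids, so genes of those responses were read in the same fit. Of 13 immediate early genes, 7 fell and 0 rose, where 5.97% of all genes fell and 9.43% rose, with a median log2 fold change of -1.02. Their summed level was 1227, 1341 and 1871 CPM in wild type replicates 1, 2 and 3 and 900, 682 and 898 CPM in knockout replicates 1, 2 and 3, with no overlap. Fos, a subunit of AP-1, fell by 1.26 on the log2 scale (353 ± 115 and 148 ± 30.9 CPM, SD, n = 3; edgeR adjusted p = 0.0168). The orphan receptor gene Nr4a1 fell by 1.56 (16.3 ± 0.829 and 5.52 ± 1.82 CPM, SD, n = 3; edgeR adjusted p = 0.00194) and the kinase gene Sik1 by 0.89 (9.87 ± 0.689 and 5.31 ± 0.121 CPM, SD, n = 3; edgeR adjusted p = 0.00281). Fosb, Jun, Junb and Btg2 fell too, with log2 fold changes of -2.05, -1.05, -1.02 and -0.65. Without knockout replicate 2 the count was 3. Their part in the clock gene values was not tested.

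Of 10 glucocorticoid target genes 3 rose and 0 fell, against 9.43% and 5.97% over all genes, with a median log2 fold change of 0.29. Fkbp5, a cochaperone of the glucocorticoid receptor, had 43.6, 41.3 and 50.3 CPM in wild type replicates 1, 2 and 3 and 60.5, 65.9 and 74.0 CPM in knockout replicates 1, 2 and 3. It rose by 0.57 on the log2 scale without overlap (edgeR adjusted p = 0.00667). Zbtb16, a zinc finger repressor, rose by 0.97 (edgeR adjusted p = 0.0273), and Klf9 is on this list too. Tsc22d3 and Sgk1 had log2 fold changes of 0.00 and 0.24 and did not pass. Of the 10 genes, 3 had negative log2 fold changes. The lowest was -0.48 in Nfkbia, lower in knockout without overlap but not called (edgeR adjusted p = 0.0616). The count of 3 was 1 without wild type replicate 2, wild type replicate 3 or knockout replicate 3 and 5 without wild type replicate 1.

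**Figure D5:**
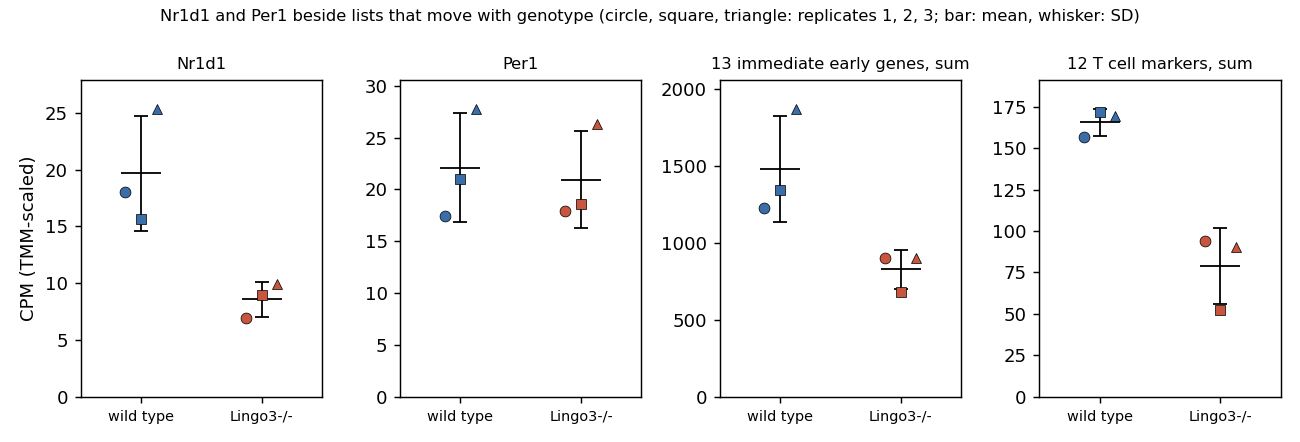
CPM per library of Nr1d1 and Per1 and the summed CPM of 13 immediate early genes and 12 T cell markers, wild type (blue) and Lingo3-/- (red), with means and SD over 3 libraries. The immediate early genes and the T cell markers are lower in every knockout library than in any wild type library, as Nr1d1 is, and Per1 overlaps.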

How the data were processed

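RNA-seq libraries of the colon epithelial fraction, 3 wild type and 3 Lingo3-/-, were made with a stranded total RNA kit after ribosomal RNA depletion, per the labels' protocols. Trimmomatic 0.39, STAR, HTSeq, DESeq2 and the build GRCm38 are listed in the submitters' processing notes; for the last 3 tools the versions, and for the counting the strand setting and annotation release, are not stated there. The deposited counts are raw whole numbers per Ensembl gene. The authors' deposited comparison table holds log2 fold changes, p-values and, as signal columns, normalized counts per library, per the file headers; only its log2 fold changes and adjusted p-values are quoted. HTSeq summary lines, 53.6 to 60.1% of all reads counted, were left out of library sizes.

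Genes were kept by filterByExpr (minimum count 10, minimum total 15), scaled by TMM and fitted in edgeR with genotype as the only term (robust quasi-likelihood, 2-sided), and Benjamini-Hochberg adjustment over 16856 genes at a threshold of 0.05. Log2 CPM used a prior count of 2. A floor of 3 counts equals 0.113 to 0.240 CPM and covers counting error only. No libraries agreed within sampling noise (lowest chi-square 9.40 per degree of freedom). Gene models were those of GENCODE M21, which holds 45229 of the 46078 identifiers, and promoter windows those of RefSeq. DESeq2 1.42.0, limma 3.58.1 and edgeR 4.0.16 ran in R 4.3.3, and the fit was tested on simulated data. There it found 38.8%, 69.7% and 96.9% of the 1.5-fold, 2-fold and 4-fold changes. Of its 148 calls, 13 were false.

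The clock genes and all lists were chosen with earlier results of these data known, so no p over a list is given. Named are all clock genes, loop factors (some list genes are not reported here), PAR bZIP factors and Nfil3, the called genes of other lists with up to 3 more, antisense neighbours, and the genes most like Dbp and Arntl; Sphk2, D930015M05Rik and further examples were added after their values were seen. Alternatives were RLE, upper-quartile and total-count scaling, nuclear protein-coding genes only, DESeq2, limma-voom, 2 other filters (none, and a mean CPM of at least 1), thinning to 11868000 counts, a replicate block, and leaving out each library.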

Additional observations from a re-analysis of the deposited data

How the results depend on the processing

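Nr1d1 and Cry2 were called lower in all 16 alternatives, Nr1d1 with log2 fold changes of -1.32 to -0.92 and Cry2 with -0.77 to -0.38. Nr1d2 lost its call in 8 of 16, among them DESeq2 (adjusted p = 0.0557) and library totals only (-0.07; edgeR adjusted p = 0.668). Dbp passed in 1 of 16, without a filter. Library totals only, which do not correct for composition, gave 5835 changed genes, 92.8% of them higher, against 2596 and 61.2% with TMM and 45.4% with upper-quartile factors. Leaving out single libraries gave 1124 to 2686 genes: leaving out wild type replicate 2 gave 1672, wild type replicate 3 gave 1679, knockout replicate 2 gave 1371 and knockout replicate 3 gave 1124. The count of clock genes called higher, 0 with TMM, was 3 with library totals only and 1 with no filter, and 0 without any single library, while the count called lower, 3 with TMM, was 4 with no filter and 2 to 3 in the other alternatives. Same-numbered libraries did not deviate together (correlations of -0.0102, -0.117 and -0.103), and no library correlated best with its own number; with the replicate block 2061 genes changed, 1 clock gene (Per2, edgeR adjusted p = 0.0484) was higher, Nr1d2 missed the threshold (0.0551), outputs had 0 higher and 2 lower, and glucocorticoid targets 1 lower. Other loop factors with Tef and Nfil3, 1 lower with TMM, had 2 lower with upper-quartile factors or nuclear protein-coding genes, 0 with library totals only, and 0 to 1 without single libraries. Kinases and partners had 7 higher with library totals only and 0 to 4 without single libraries. Outputs had 1 higher with upper-quartile factors and 4 lower with no filter; without single libraries they had 0 to 4 higher and 0 to 1 lower. Immediate early genes had 11 lower by DESeq2 and 3 to 7 without single libraries. Glucocorticoid targets had 1 lower by DESeq2, 2 with no filter and 1 after thinning; without single libraries they had 1 to 5 higher and 0 to 1 lower. Changed signs, all among genes not called, were Per1 0.19, Per3 0.15, Arntl 0.18, Bhlhe40 0.26 and Nfil3 0.25 with library totals only, and Clock -0.037 and Ciart -0.036 with upper-quartile factors. With nuclear protein-coding genes only, Clock was -0.00083 and Ciart -0.0056; Ciart was -0.011 by DESeq2, -0.21 by limma-voom and -0.10 with the replicate block. Without single libraries Per1 ran from -0.27 to 0.13, Per3 from -0.22 to 0.0027, Clock from -0.067 to 0.10, Bhlhe40 from -0.16 to 0.12, Ciart from -0.33 to 0.40 and Nfil3 from -0.10 to 0.11. The ratio between genotypes of Arntl to Nr1d1 stayed at 1.92 to 2.27 and of Arntl to Dbp at 1.53 to 2.36. The cause of these shifts was not tested. Depth limits the scarce genes, Dbp with 7 and Ciart with 3 counts in the shallowest library.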

Other observations

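Across the 6 libraries, the genes whose centred log2 CPM lay nearest to that of Dbp, among 14595 genes with a mean of at least 1 CPM, were Lrrc75aos2, Tmem229b and Rnft2, with root mean square differences of 0.160, 0.165 and 0.173. Among the clock genes the nearest to Dbp were Nr1d2 at rank 1516 and Cry2 at rank 1717, and Nr1d1 stood at rank 3517. The genes nearest to Arntl were Smap1, Efnb1 and Il17rc, at 0.0242, 0.0345 and 0.0360, and Clock stood at rank 1728. These ranks describe 6 libraries and carry no test.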
